A study of Mus musculus with 12 samples.

Results

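The CCR4-NOT complex shortens the poly(A) tails of mRNAs in the cytoplasm, the first step of most mRNA decay. It was followed here through 10 of its genes, taken by symbol from a fixed list: Cnot1, Cnot2, Cnot3, Cnot4, Cnot6, Cnot6l, Cnot7, Cnot8, Cnot10 and Cnot11. All 10 had a row in both count tables, out of 55335 gene rows, and all 10 passed the filter on low counts in both assays. Cnot10 (ENSMUSG00000056167.8) carried no symbol in the authors' deposited comparison for RNA and was not listed in the one for footprints, so it was found through its Ensembl ID.

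Thymocytes of 6-week-old mice were compared between 3 wild-type (WT) mice and 3 mice lacking the microRNA genes miR-181a/b-1 (KO). The cells were put through a strainer without a sort and placed at once in 0.1 mg/ml cycloheximide, which stalls ribosomes in both genotypes alike. RNA-seq and ribosome footprinting, which sequences the mRNA fragments that ribosomes protect, gave 3 libraries for each assay and genotype, 12 in all. The labels do not give the strain or sex, whether the deletion was restricted to a cell type, or whether an RNA-seq and a footprint library of the same number share a mouse.

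Within the complex, CNOT1 is the large scaffold on which the other subunits sit. CNOT6 or CNOT6L (the Ccr4-type enzymes) and CNOT7 or CNOT8 (the Caf1-type enzymes) are alternative catalytic subunits that remove adenosines. CNOT2 and CNOT3 form the NOT module at one end of the scaffold, CNOT10 and CNOT11 a module at the other, and CNOT4 is a ubiquitin ligase that is not a stable part of the mammalian complex. A microRNA bound to an Argonaute protein brings the complex to its target mRNA through TNRC6 proteins, so these genes encode part of the machinery that a microRNA such as miR-181 uses.

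The mature microRNAs of the deleted pair are shown because the KO is defined by the loss of their genes Mir181a-1 and Mir181b-1. The relatives miR-181c-5p and miR-181d-5p stand below them, and the seed (bases 2 to 8) is in capitals. Sequences are from RefSeq, GRCm38.p6. On the plus strand, miR-181a-5p of Mir181a-1 lies at chr1:137966468-137966490 and miR-181b-5p of Mir181b-1 at chr1:137966650-137966673.
miR-181a-5p: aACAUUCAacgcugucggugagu
miR-181b-5p: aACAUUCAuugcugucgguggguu
miR-181c-5p: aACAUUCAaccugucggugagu
miR-181d-5p: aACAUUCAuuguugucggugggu
All 4 share the seed ACAUUCA. The same mature miR-181a-5p and miR-181b-5p are also encoded by Mir181a-2 and Mir181b-2 on chromosome 2, and miR-181c and miR-181d by chromosome 8, so the labels' KO removes 1 of several sources of this seed. Whether the mRNAs of the 10 genes hold matches to this seed was not analysed here.

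The targeted gene was checked first. Reads of Mir181a-1 in footprints were 165.9, 132.6 and 145.5 CPM (reads scaled to a common library total) in WT and 0.4639, 1.039 and 0.9819 CPM in KO. In RNA-seq the row held 7 to 41 reads per library and the genotypes overlapped, so it checks the labels of the footprint libraries only. Reads in genes numbered 4479182 to 8180286 per RNA-seq library and 4069968 (KO replicate 3) to 17859770 per footprint library. All 11 thymocyte markers were above 1 CPM in both assays, with a summed level of 13200 to 15290 CPM in RNA-seq. The markers of B cells (13.04 to 25.89 CPM), of myeloid and dendritic cells (61.75 to 77.27), of erythroid cells (46.64 to 90.94), of thymic epithelium (17.76 to 25.38) and of fibroblasts and endothelium (197.2 to 238.7) summed to far lower levels there. Erythroid markers were lower in KO than in WT in RNA-seq (46.64 to 58.38 against 76.03 to 90.94), as were those of epithelium, and fibroblast and endothelial markers were higher (228.7 to 238.7 against 197.2 to 202.2). Their part in the results was not tested. In such bulk samples, fewer cells of a type and less RNA per cell cannot be told apart.

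In each assay a WT library and the KO library of the same number deviated from their genotype means in opposite directions, with correlations across genes of -0.99 to -0.978 in RNA-seq and of -0.992 for each number in footprints. The spread among the 3 libraries of a genotype therefore need not measure the spread between mice. Libraries of different numbers correlated at 0.15 to 0.728 in RNA-seq and at 0.387 to 0.633 in footprints, so the counts tie the same-numbered libraries. What a number shares is not given in the labels. Opposite deviations widen the differences between same-numbered libraries, so FDRs without a block are too small. Each call of a KO effect is therefore given with the replicate number as a block as well.

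The first comparison asked how strongly the mRNA of each subunit was occupied by ribosomes in WT thymocytes. The catalytic subunits Cnot6, Cnot6l and Cnot7 had the fewest footprints for their RNA, about 0.41 to 0.43 times the typical gene. Cnot8, the close relative of Cnot7, lay on the other side at 1.54 times, beside Cnot2 (1.74), Cnot11 (1.38) and Cnot10 (1.31). The scaffold Cnot1 (1.07) and Cnot3 (1.03) were near the typical gene, and Cnot4 was below it (0.612). These values are ratios of footprint CPM to RNA CPM, scaled so that the median gene lies at about 1. CPM is not corrected for length, so levels of different genes are not compared here, but a ratio of both assays for 1 gene can be. Footprints lie in coding sequence and RNA reads on whole transcripts, so the share of a transcript that is coded enters the ratio too.

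Cnot6, a Ccr4-type deadenylase, had 503.9, 575.5 and 405.1 CPM in the WT RNA-seq libraries and 172.1, 179 and 180 CPM in the WT footprint libraries. Its footprints were lower in every library, by a log2 difference of -1.28 (SE 0.11, edgeR FDR 4.51e-08). Its paralogue Cnot6l had 311, 330.6 and 255.5 CPM in RNA and 103.1, 112.2 and 112.4 CPM in footprints. That is a log2 difference of -1.25 (SE 0.10, edgeR FDR 1.62e-08), so both Ccr4-type enzymes lay close together, at percentiles 16.9 and 17.4 of the 11474 genes tested.

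The Caf1-type enzymes parted. Cnot7 had 103, 118.8 and 87.46 CPM in WT RNA and 37.38, 37.31 and 40.46 CPM in footprints (log2 difference -1.22, SE 0.10, edgeR FDR 4.79e-08). Cnot8 had 129.9, 138.5 and 137.7 CPM in RNA and 184.2, 175.7 and 184.1 CPM in footprints (log2 difference 0.63, SE 0.07, edgeR FDR 1.29e-06). For Cnot7 each footprint library lay below each RNA-seq library, and for Cnot8 each lay above.

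Of the 10 genes, 4 were called higher, namely Cnot2, Cnot8, Cnot10 and Cnot11. Another 4 were called lower, namely Cnot4, Cnot6, Cnot6l and Cnot7. Calls are no mark of the complex in this comparison, since 42% of all genes were called higher and 41.5% lower, so the sizes are what is described. Cnot2, a partner in the NOT module, had 203, 218.4 and 169.8 CPM in RNA and 281.1, 311.3 and 301.4 CPM in footprints, the highest log2 difference among the 10 genes at 0.80 (SE 0.09). Among all genes the lower and upper quartiles were -0.88 and 0.88. Of the 10 genes 3, the enzymes Cnot6, Cnot6l and Cnot7, lay outside that range. By the definition of quartiles, a larger share of all genes lies outside it.

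**Figure D1:**
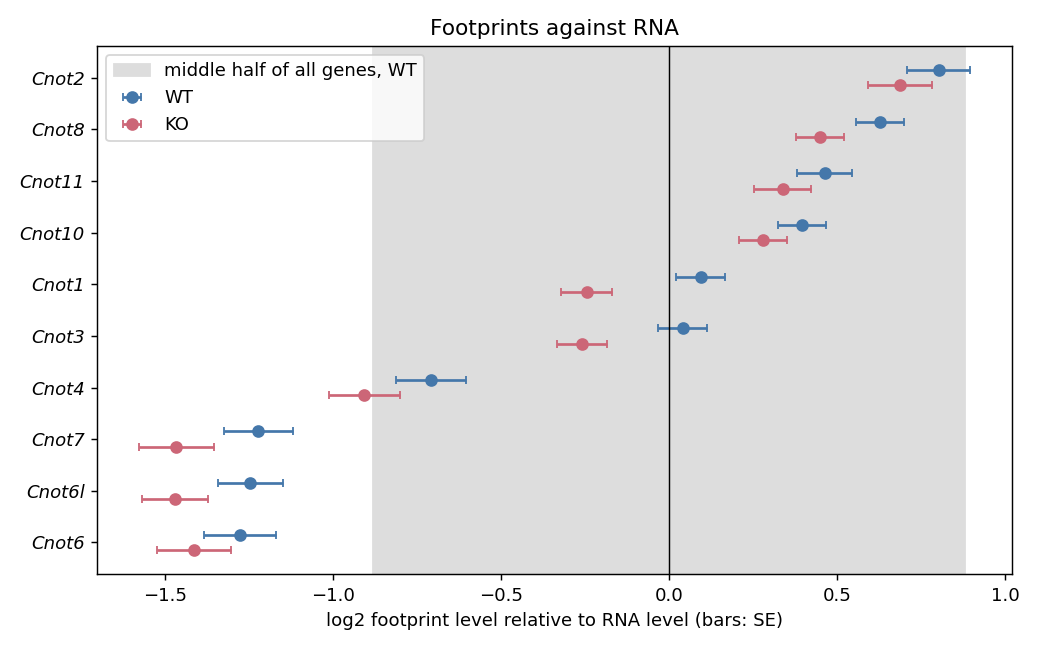
Log2 footprint level relative to RNA level (x axis) of each of the 10 genes (y axis), in WT (blue) and KO (red) libraries, with SE bars from 3 footprint and 3 RNA-seq libraries each; the grey band runs from the lower to the upper quartile of all genes in WT. Cnot6, Cnot6l and Cnot7 sit near -1.25 in WT, to the left of the band, and Cnot8 at 0.63 and Cnot2 at 0.80 sit to the right of 0.

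The KO libraries gave the same quantity in other samples. Cnot6l (-1.47), Cnot7 (-1.47) and Cnot6 (-1.42) were again the lowest and Cnot2 (0.69) and Cnot8 (0.45) the highest. Here 10 of 10 genes were called, 4 higher and 6 lower, where 40.6% and 41.7% of all genes were. The Cnot1 (-0.25, edgeR FDR 0.00756) and Cnot3 (-0.26, edgeR FDR 0.00547) calls were lost without footprint KO replicate 3 (FDR 0.0836 and 0.0829) and with no filter on low counts. In WT, with the order given by size, Cnot6, Cnot6l and Cnot7 differed from each other by less than 1 SE, as did Cnot1 from Cnot3 and Cnot10 from Cnot11, while Cnot4 lay between the enzymes and the scaffold by several SE on each side.

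Ratios of reads within a library do not depend on the scaling between libraries, and 4 pairs of subunits were followed that way. Among the RNA reads, Cnot8 had 1.26, 1.17 and 1.58 times the reads of Cnot7 in WT and 1.14, 1.28 and 0.939 times in KO. Among the footprints it had 4.93, 4.71 and 4.55 times in WT and 3.98, 4.17 and 4.33 times in KO. All 6 footprint libraries lay above all 6 RNA-seq libraries, and the ratio of Cnot8 to Cnot7 was 3.66-fold larger among footprints (log2 difference 1.87; exact permutation test, two-sided, p = 0.00216, the smallest that 6 against 6 libraries allow; 0.00432 adjusted over the 4 pairs). The test takes the 6 libraries of an assay as separate although same-numbered WT and KO libraries mirror each other, so its p-value may be too small.

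The ratio of Cnot6l to Cnot6 ran from 0.574 to 0.842 in RNA and from 0.599 to 0.775 in footprints. Those ranges overlap, and the log2 difference of -0.02 did not pass the exact permutation test (p = 0.82). For the NOT module, the ratio of Cnot3 to Cnot2 was 0.602 to 0.848 in RNA and 0.364 to 0.422 in footprints, a log2 difference of -0.86 with no overlap (exact permutation p = 0.00216, adjusted 0.00432), under the same limit. Cnot11 to Cnot10 had 0.436 to 0.467 in RNA and 0.441 to 0.501 in footprints (log2 difference 0.06, exact permutation p = 0.139, adjusted 0.185), and these ranges overlap.

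**Figure D2:**
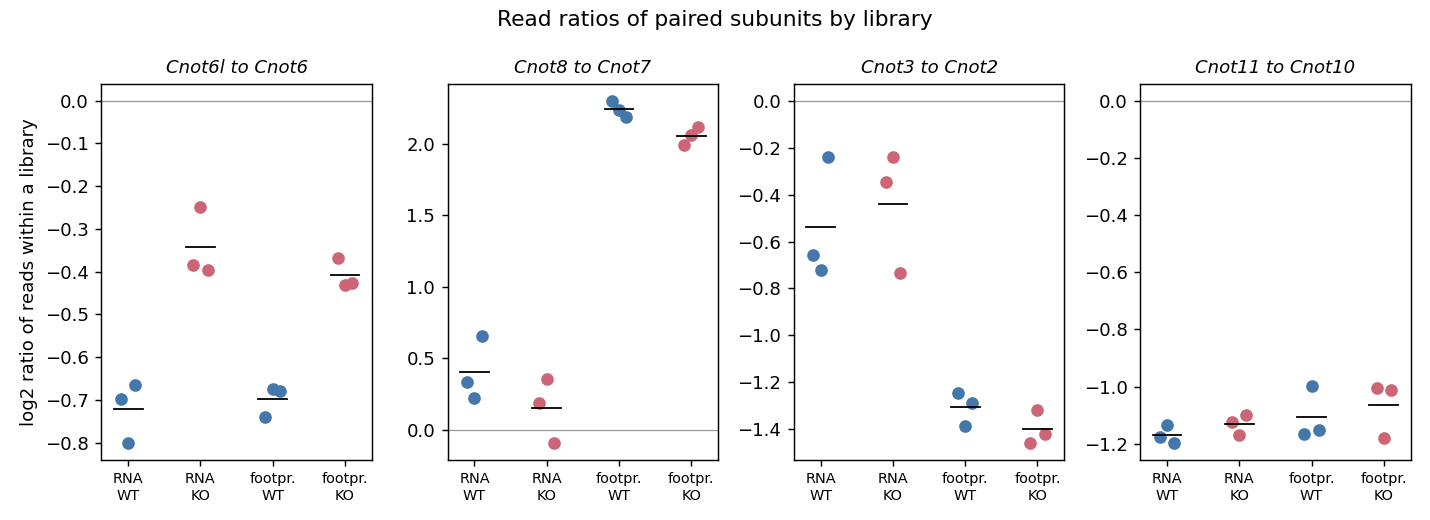
Log2 ratio of reads of 1 subunit to its partner (y axis, a separate scale per panel) in each library of 4 groups (x axis, 3 points per group; blue WT, red KO; black bars are means). In the Cnot8 to Cnot7 panel the footprint libraries lie near 2.1 and the RNA-seq libraries near 0.28, and in the Cnot6l to Cnot6 panel the KO libraries lie above the WT libraries in both assays.

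Between the genotypes, the ratio of Cnot6l to Cnot6 was the one that did not overlap in either assay, and it did not pass its test. How often ratios of other gene pairs do so was not computed. For levels of single genes a lack of overlap was common. In RNA-seq 15.5% of all genes had KO above WT and 15.4% below, and in footprints 18.5% and 19.6%. In RNA-seq it was 0.617, 0.574 and 0.631 in WT and 0.767, 0.842 and 0.76 in KO, a log2 difference of 0.38. In footprints it was 0.599, 0.627 and 0.625 in WT and 0.775, 0.742 and 0.744 in KO, a log2 difference of 0.29. The genotypes did not overlap in either assay, and in each the exact permutation test gave p = 0.1, the smallest that 3 against 3 libraries allow (0.267 adjusted over the 8 ratio tests between genotypes), so this test cannot reach 0.05 with these libraries. With same-numbered libraries paired, the exact permutation p was 0.25 in both assays, the smallest that 3 pairs allow, so it cannot reach 0.05 either. Cnot8 to Cnot7 was lower in KO footprints without overlap (log2 difference -0.19, exact permutation p = 0.1) and overlapped in RNA-seq (-0.25, exact permutation p = 0.3). The ratios within the other 2 pairs overlapped between the genotypes in both assays, with log2 differences from -0.09 to 0.10. Reads that align to several places were set apart in the counting, so stretches that paralogues share can be missing from these ratios. Whether this loss differed between genes or assays was not tested.

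The second comparison asked whether loss of miR-181a/b-1 was accompanied by a change in the RNA of these subunits. No call was made in RNA-seq, 0 of 10 at an edgeR FDR under 0.05, where 3.48% of 13652 genes were called higher and 3.43% lower in KO. At an unadjusted p under 0.05 lay 2 of the 10, below the 23.8% of all genes there, and DESeq2 also called 0. The log2 fold changes ran from -0.14 for Cnot8 to 0.31 for Cnot6l, with a median of 0.03 against -0.000534 over all genes, and 5 of 10 were below 0.

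Cnot6l had 311, 330.6 and 255.5 CPM in WT and 359.6, 331.5 and 421.3 CPM in KO. Each KO library lay above each WT library, although KO replicate 2 and WT replicate 2 were nearly equal. Its log2 fold change was 0.31 (SE 0.13, unadjusted p 0.0448, edgeR FDR 0.198). Cnot8 had 129.9, 138.5 and 137.7 CPM in WT and 127.9, 119.8 and 119.9 CPM in KO (log2 fold change -0.14, SE 0.06, edgeR FDR 0.19), with KO below WT in all libraries. Those 2 were the members whose genotypes did not overlap, where 15.5% of all genes had KO above WT and 15.4% KO below WT.

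The scaffold Cnot1 had 643.4, 631.1 and 605.8 CPM in WT RNA and 643.4, 656.1 and 676.5 CPM in KO, which meet at replicate 1. Its log2 fold change of 0.07 (SE 0.05) did not pass the test (edgeR FDR 0.456). In the NOT module, Cnot3 had 128.8, 132.5 and 143.9 CPM in WT and 151.1, 148 and 133.6 CPM in KO (log2 fold change 0.09), and its partner Cnot2 had 203, 218.4 and 169.8 CPM in WT and 192.2, 174.5 and 221.9 CPM in KO (-0.00308). Both overlapped between the genotypes.

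In the module at the other end of the scaffold, Cnot10 had 122.1, 124.6 and 131 CPM in WT RNA and 123.5, 121.5 and 114.1 CPM in KO (log2 fold change -0.07). Cnot11 had 54.05, 56.77 and 57.16 CPM in WT and 56.61, 53.98 and 53.27 CPM in KO (-0.04). These were among the steadiest levels of the complex, and the genotypes overlapped for both. The ubiquitin ligase Cnot4 (0.16), Cnot6 (-0.07) and Cnot7 (0.12) did not pass either, at edgeR FDR 0.543, 0.853 and 0.689.

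**Figure D3:**
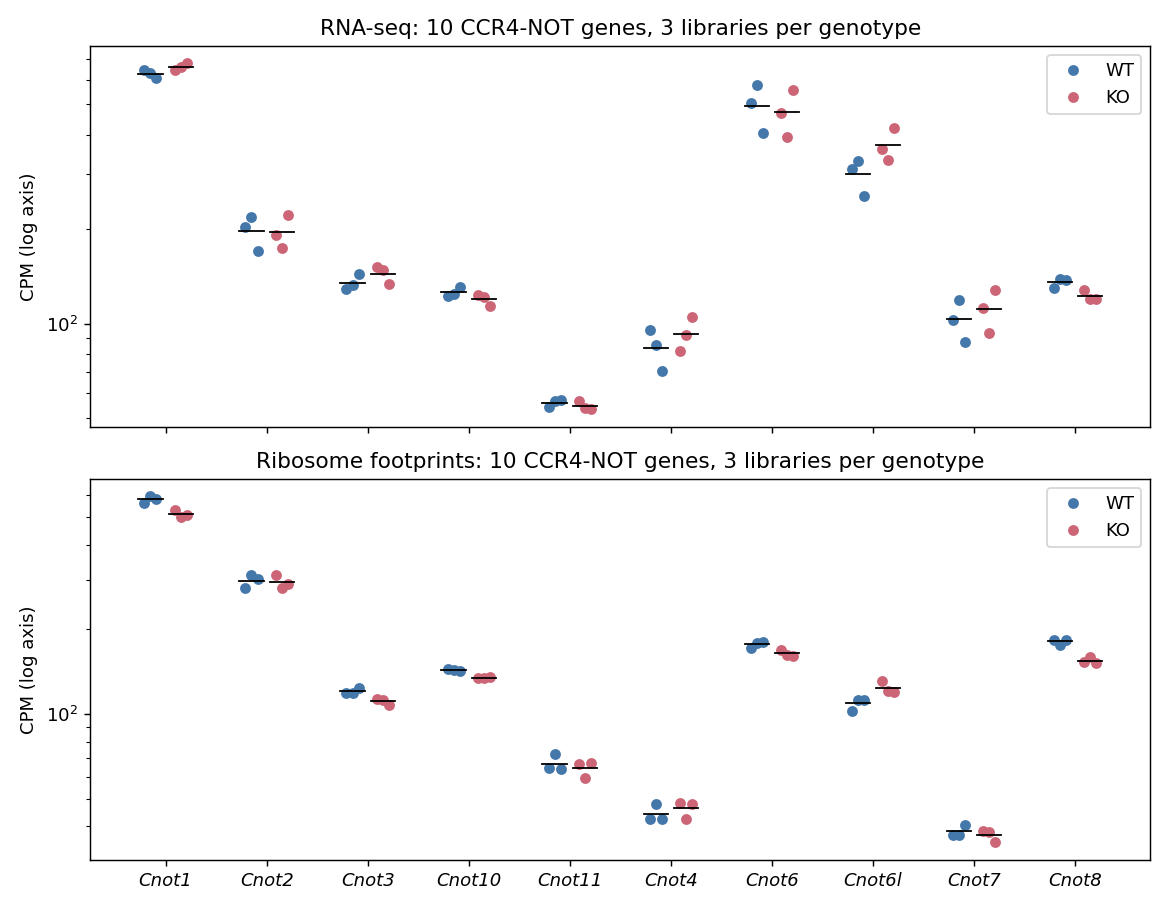
CPM on a log axis of the 10 genes in RNA-seq (top) and footprints (bottom), with 3 libraries each of WT (blue) and KO (red) and black bars at the means; CPM is not corrected for length. In RNA-seq the points of Cnot2, Cnot4, Cnot6, Cnot6l and Cnot7 are spread wider than those of the other 5 genes, and in footprints the KO points of Cnot1 and Cnot8 lie below the WT points.

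The members fell apart in how steady their RNA level was among libraries of 1 genotype. Cnot2, Cnot4, Cnot6, Cnot6l and Cnot7 had a coefficient of variation between 12.2% (Cnot2 in KO) and 17.3% (Cnot6 in WT). For Cnot1, Cnot3, Cnot8, Cnot10 and Cnot11 it lay between 2.54% (Cnot1 in KO) and 6.47% (Cnot3 in KO). In footprints no gene exceeded 7.21% (Cnot4 in KO). The wide group holds the 4 genes with the fewest footprints for their RNA, and also Cnot2, which has the most.

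The share of counted reads that lay in no annotated feature moved with Cnot2, Cnot6, Cnot6l and Cnot7 of the wide group, but not in step with Cnot4. It was 54.9%, 57.1% and 51.7% in WT replicates 1 to 3 and 53.3%, 50.9% and 56.6% in KO replicates 1 to 3 of RNA-seq, against 5.32% to 6.39% in footprints. In 4 genes, Cnot2, Cnot6, Cnot6l and Cnot7, the libraries of each genotype stood in exactly the order of that share, and in 0 genes in the reverse order, where 18.3% of all genes tested stood in that order and 18.7% in the reverse. Nothing particular to the complex is read from this count. Cnot6, for example, stood at 116.3% of the WT mean in the WT library with the highest share and at 81.86% in the one with the lowest, and at 117.3% and 83.37% of the KO mean in the corresponding KO libraries. Since KO libraries mirror WT libraries of the same number, the KO order is not a separate observation. The part of these reads in the levels was not tested.

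**Figure D4:**
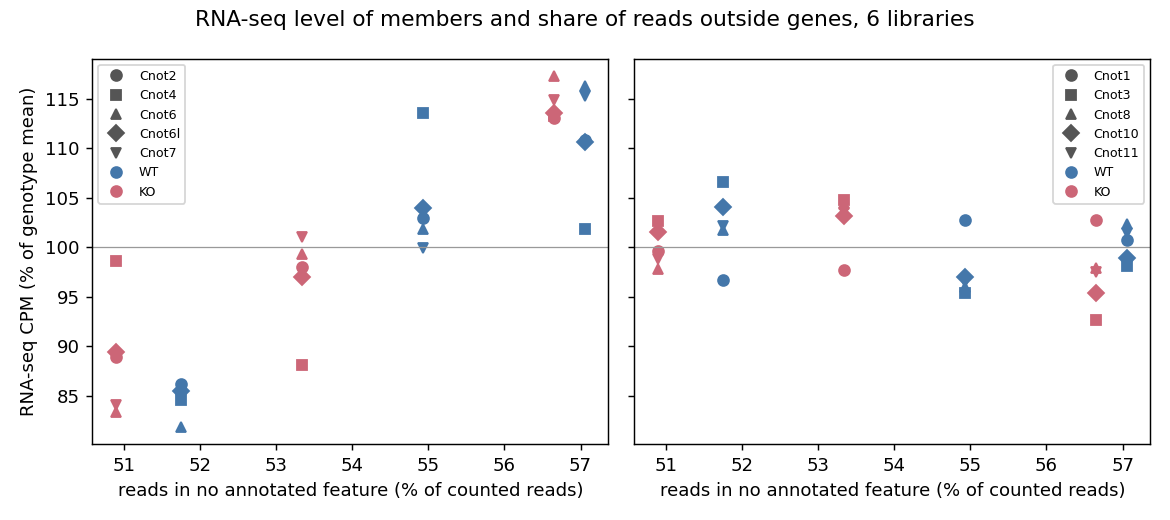
RNA-seq CPM as a percentage of the genotype mean (y axis) against the percentage of counted reads in no annotated feature (x axis) in 6 libraries (blue WT, red KO; 1 symbol per gene); left the 5 genes with the wider spread, right the other 5, a division made after the values were seen. On the left all genes but Cnot4 climb in both genotypes, Cnot6 from 81.86% to 116.3% in WT, as the share of reads outside genes grows, and on the right they stay between 92.6% and 106.6%.

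The third comparison put the same question to footprints. Cnot1 and Cnot8 fell in KO and the other 8 genes were not called. That is 2 of 10 called lower and 0 higher (edgeR, FDR under 0.05), where 8.34% of 13509 genes were called lower and 9.25% higher. With the replicate number as a block 0 of 10 were called (1 at an unadjusted p under 0.05), and DESeq2 called 1, Cnot8 (adjusted p 0.0363). Without the block 6 of 10 lay at an unadjusted p under 0.05, where 33.1% of all genes did. Over the 10 genes 8 log2 fold changes were below 0, against 51.6% of all genes, with a median of -0.08 against -0.00904 over all genes.

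Cnot8, a Caf1-type deadenylase, had 184.2, 175.7 and 184.1 CPM in WT footprints and 152.8, 159.9 and 152 CPM in KO. Each KO library lay below each WT library (181 ± 4.91 against 155 ± 4.35 CPM, SD, n = 3), though this SD need not measure the spread between mice. The log2 fold change was -0.22 (SE 0.04, edgeR FDR 0.0121, with the block 0.213), and the call was lost without KO replicate 1 (FDR 0.0615) or KO replicate 3 (FDR 0.0504), the shallowest library. The authors' deposited table also lists Cnot8 as lower in footprints, at a log2 fold change of -0.22 and an adjusted p of 0.0142.

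Cnot1, the scaffold, had 562.3, 594.2 and 582.5 CPM in WT footprints and 531.6, 502.1 and 510.3 CPM in KO, again with no overlap (580 ± 16.1 against 515 ± 15.2 CPM, SD, n = 3). Its log2 fold change was -0.17 (SE 0.04, edgeR FDR 0.0309, with the block 0.356). This call was lost under DESeq2 (adjusted p 0.0755), with no filter on low counts (FDR 0.0706) and in 5 of 6 omissions of 1 library, all but that of WT replicate 1, at log2 fold changes of -0.20 to -0.16 (FDR 0.0486 to 0.107). The authors' deposited table lists Cnot1 as lower too (log2 fold change -0.17, adjusted p 0.018).

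Other members were lower in KO footprints without overlap and without a call. Cnot10 had 144.4, 143.8 and 142.2 CPM in WT and 134, 134.3 and 135.3 CPM in KO (log2 fold change -0.09, edgeR FDR 0.0779). Cnot3 had 118.6, 119.2 and 123.6 CPM in WT and 113.4, 112.6 and 108 CPM in KO (-0.11, edgeR FDR 0.0915). Cnot6 had 172.1, 179 and 180 CPM in WT and 169.7, 162.8 and 161.3 CPM in KO (-0.10, edgeR FDR 0.11). With Cnot1 and Cnot8, these were 5 genes with KO below WT in every library, where 19.6% of all genes had that and 18.5% had KO above WT.

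Cnot6l was the 1 member with KO above WT in every footprint library, at 103.1, 112.2 and 112.4 CPM in WT and 131.5, 120.8 and 120 CPM in KO. Its log2 fold change was 0.19 (SE 0.06, unadjusted p 0.0127, edgeR FDR 0.0629), so it was not called. Both Ccr4-type enzymes thus had non-overlapping genotypes in footprints, on opposite sides. Cnot2 (-0.02), Cnot4 (0.05), Cnot7 (-0.03) and Cnot11 (-0.07) overlapped between genotypes, with edgeR FDR from 0.574 for Cnot11 to 0.963 for Cnot7. Summed over the 10 genes, footprints were 1710, 1793 and 1773 CPM in WT and 1698, 1613 and 1627 CPM in KO, below WT in each KO library. Most of that fall lay in the called genes Cnot1 (mean 580 to 515 CPM) and Cnot8 (181 to 155 CPM). How often sums of other genes separate the genotypes was not computed. The same sum in RNA was 2294, 2412 and 2064 CPM in WT and 2317, 2184 and 2528 CPM in KO, which overlap.

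**Figure D5:**
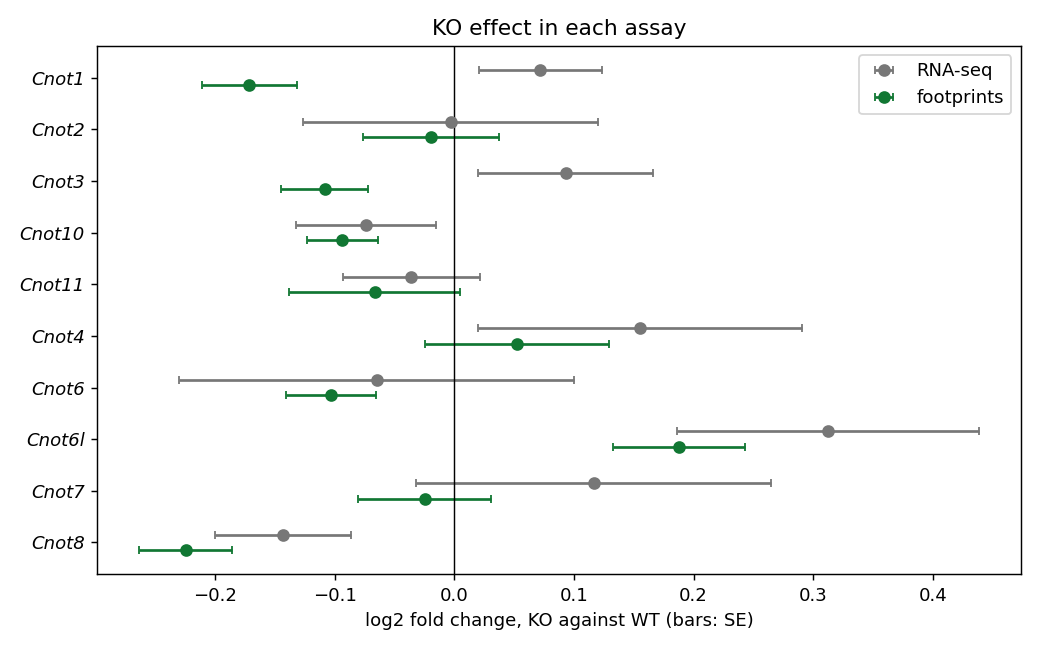
Log2 fold change of KO against WT (x axis, SE bars, 3 libraries per genotype) for each of the 10 genes (y axis) in RNA-seq (grey) and footprints (green). The footprint points of Cnot8 (-0.22) and Cnot1 (-0.17) lie furthest left and Cnot6l lies furthest right in both assays (0.31 and 0.19).

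The fourth comparison tested the difference between the KO effects of both assays, the change in footprints beyond that in RNA. Of the 10 genes 0 were called (edgeR interaction over 12 libraries), where 0.211% of 11854 genes were, and DESeq2 also called 0. At an unadjusted p under 0.05 lay 2 of the 10, near the 14% of all genes there. Those were Cnot1 (interaction -0.25 on the log2 scale, SE 0.07, unadjusted p 0.00531, edgeR FDR 0.171) and Cnot3 (-0.20, SE 0.09, unadjusted p 0.0359, edgeR FDR 0.313). For Cnot1 this set a footprint change of -0.17 beside an RNA change of 0.07, and for Cnot3 -0.11 beside 0.09. All 10 interaction values were below 0, with TMM and with RLE scaling, where 48% and 48.8% of all genes were, at a median of -0.09 against 0.01 over all genes. The subunit Cnot9, which is not among the 10, lay on the other side at 0.02. For Cnot2, Cnot4, Cnot6, Cnot10 and Cnot11 the sign changed in the omission of at least 1 library. The 10 values share the same 12 libraries and are no independent replicates.

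Genes that work with the complex were taken from 5 lists, with 59 genes tested in RNA-seq and 60 in footprints. In RNA-seq 2 rose and 0 fell, and in footprints 7 rose and 5 fell, without the block; with it 1 and 2 were called. Over all genes, as given above, 3.48% were called higher and 3.43% lower in RNA-seq, and 9.25% and 8.34% in footprints. With the block 110 of 13652 genes were called in RNA-seq and 408 of 13509 in footprints. The totals of the lists thus lie near the background. Among proteins that bring the complex to mRNAs (17 tested) 2 rose in RNA-seq and 3 in footprints, and 0 fell. Zfp36l2, which binds AU-rich elements and recruits CCR4-NOT, rose in RNA from 102 ± 21.1 CPM in WT to 206 ± 48.4 CPM in KO (SD, n = 3), a log2 fold change of 1.01 (edgeR FDR 0.0435, with the block 0.0499). Its footprints went from 52.3 ± 12.9 CPM in WT to 137 ± 33.4 CPM in KO (1.44, edgeR FDR 0.00886, with the block 0.00537). Its relative Zfp36l1 rose in footprints from 41.3 ± 3.92 CPM in WT to 84.7 ± 7.96 CPM in KO (SD, n = 3), by 1.01 on the log2 scale (edgeR FDR 0.00159, with the block 0.00113), while its RNA change of 0.36 was not called (edgeR FDR 0.151).

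Tnrc6b, which links Argonaute proteins to CCR4-NOT, rose by 0.24 in RNA (edgeR FDR 0.0347) and by 0.27 in footprints (edgeR FDR 0.00679) on the log2 scale. Neither Tnrc6b call held with the block (FDR 0.589 and 0.131). Medians of this list were -0.01 in RNA-seq and 0.02 in footprints.

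Direct partners of the complex, the subunit Cnot9 and the BTG and TOB proteins that bind CNOT7 and CNOT8, gave 2 of 6 genes higher in footprints (9.25% of all genes), 0 lower, and 0 of 6 called in RNA-seq. Tob1 rose from 48.7 ± 2.74 CPM in WT to 61.2 ± 3.42 CPM in KO (SD, n = 3), by 0.33 on the log2 scale (edgeR FDR 0.0166, with the block 0.134). The other was Btg3, below the level set for naming genes and named because the count is small (1.21, edgeR FDR 0.0132, with the block 0.282, at an average log2 CPM of -0.06). Cnot9 itself was not called in RNA-seq (0.07, edgeR FDR 0.555) or footprints (0.09, edgeR FDR 0.174), and its footprints stood at 1.21 times its RNA relative to the typical gene in WT. Each KO footprint library of Cnot9 lay above each WT library, where 18.5% of all genes had that, and its RNA-seq libraries overlapped.

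In the list of other deadenylases, their adaptors and relatives, 2 of 8 genes fell in footprints, where 8.34% of all genes did, and 0 of 7 were called in RNA-seq. Pan3, the adaptor of the PAN2-PAN3 deadenylase that trims long tails, went from 235 ± 6.75 CPM in WT to 202 ± 6.33 CPM in KO (SD, n = 3), at a log2 fold change of -0.22 (edgeR FDR 0.0156, with the block 0.233). Noct, a relative of the Ccr4-type enzymes, went from 26.7 ± 0.663 CPM in WT to 21.1 ± 0.61 CPM in KO (-0.35, edgeR FDR 0.00649, with the block 0.199). Among genes of poly(A) binding and tailing, 1 of 10 fell in footprints (8.34% of all genes), Paip1 (-0.15, edgeR FDR 0.0494, with the block 0.436), and 0 were called in RNA-seq.

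Decapping and decay from the 5′ end follow deadenylation. Of 19 genes listed for decapping and mRNA decay, 2 rose and 2 fell in footprints, near the share of all genes called there, with 0 called in RNA-seq. Dcps, which clears the cap left after decay, rose by 0.27 (edgeR FDR 0.00816, with the block 0.169) and the decapping activator Patl1 by 0.19 (edgeR FDR 0.0283, with the block 0.401) on the log2 scale. Lsm14b (-0.30, edgeR FDR 0.00572, with the block 0.117) and Lsm4 (-0.33, edgeR FDR 0.0213, with the block 0.244), of the LSM protein family, fell.

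Footprints relative to RNA in WT had a median log2 difference of -1.57 over the 17 recruiters, 14 of them called lower and 2 higher, where 41.5% and 42% of all genes were. The median over the 10 complex genes was 0.07, that of the 19 decapping genes -0.00384 and that of the 10 genes of poly(A) binding and tailing -0.69. Differences between these medians were not tested.

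By RefSeq gene spans, each of the 10 complex genes but Cnot11 overlaps at least 1 other gene. Protein-coding neighbours of that kind are Setd6 for Cnot1, Leng1 for Cnot3, Gm52799 for Cnot6l, Vps37a for Cnot7 and Gm12248 for Cnot8. Whether counting used strand is not given in the sources used here, so reads of such pairs may not be told apart except where they were set aside as ambiguous.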

How the data were processed

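The deposited values were whole-number read counts per Ensembl gene, 1 table per assay, which the authors named adjusted without stating what was adjusted. FastQC, Bowtie2 2.5.1, STAR 2.7.10a, HTSeq 2.0.3 and DESeq2 1.40.2 are listed in the submitters' processing notes. The build, the annotation and the use of strand were not given in the sources used here. Another 5 rows for reads outside genes stayed out of library totals and tests; reads in genes made up 27% to 28.5% of counted reads in RNA-seq and 72.3% to 73.1% in footprints. The authors' own comparisons of KO with WT (log2 fold changes, adjusted p-values, per the file headers) were quoted where named; 12 columns of per-library values in them were not used.

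Gene IDs were paired with symbols through a reference table of gene names, 54587 by versioned and 567 by unversioned ID. Here edgeR 4.0.16 (R 4.3.3) was fitted on all genes with TMM scaling, filterByExpr (minimum count 10), the quasi-likelihood test and Benjamini-Hochberg adjustment over all genes tested; an FDR under 0.05 was called. The SE is the log2 difference divided by the root of F. The interaction used TMM within each assay, and footprints against RNA used TMM over the 6 libraries of a genotype. Alternatives were RLE factors, DESeq2 1.42.0, no filter, the replicate block and the omission of each library. The fits were tested on simulated data. Replicates were no duplicates of each other (chi-square per degree of freedom 3.41 to 12.9). The members and gene lists were chosen with earlier results of these data known. Named were all members and, per list and assay, up to 4 called genes of the largest change whose mean log2 CPM was 3 or more.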

Additional observations from a re-analysis of the deposited data

How the results depend on the processing

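With the replicate block, members called fell from 2 to 0 in footprints and stayed at 0 in RNA-seq, 0 for the interaction, 8 for footprints against RNA in WT and 10 in KO; over all genes calls went from 943 to 110, from 2376 to 408 and from 25 to 2. DESeq2 called 532, 1248 and 46 genes there, and omissions of 1 library 215 to 323, 1035 to 1554 and 6 to 24. Same-numbered WT and KO libraries deviated in opposite directions (r from -0.992 to -0.978). The labels do not say what a number shares, but the counts tie these libraries, so the FDRs without the block are too small. RNA-seq and footprint libraries of 1 number correlated at -0.06 to 0.22. Members called in footprints were 1 under DESeq2, 1 with no filter on low counts, and 0 to 2 with 1 library left out, 0 without KO replicate 1 or KO replicate 3. The cause was not tested, and each omission also leaves fewer libraries. For footprints against RNA in WT, the Cnot1 value was 0.208 (FDR 0.0352) with no filter.

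Small effects changed sign. Cnot2 in RNA-seq was 0.00401 with no filter. With 1 library left out, RNA-seq values ran from -0.106 to 0.0771 for Cnot2, from -0.201 to 0.0572 for Cnot6 and from -0.000121 to 0.231 for Cnot7. In footprints they ran from -0.062 to 0.0123 for Cnot2 and from -0.0476 to 0.00774 for Cnot7. Interaction values ran from -0.0993 to 0.0769 for Cnot2, -0.203 to 0.000717 for Cnot4, -0.163 to 0.0878 for Cnot6, -0.0592 to 0.000585 for Cnot10 and -0.0612 to 0.0323 for Cnot11. Footprints against RNA in WT ran from -0.00842 to 0.0831 for Cnot3. The log2 ratio of Cnot6l to Cnot6 between assays ran from -0.0749 to 0.0354, and that of Cnot3 to Cnot2 between genotypes in RNA-seq from -0.000777 to 0.25. Over the 12 omissions, the difference between assays was 1.8 to 1.95 for Cnot8 to Cnot7 and -0.912 to -0.813 for Cnot3 to Cnot2. In footprints the KO difference of Cnot6l to Cnot6 stayed within 0.268 to 0.301, and in RNA-seq within 0.331 to 0.406. The compared libraries do not overlap in these ratios, so leaving out 1 library could not reverse a sign, and only the sizes are informative. For Cnot6l to Cnot6, omitting a WT library or the KO library of the same number gave nearly the same value. Those omissions are therefore not separate checks.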
